A study of Mus musculus with 39 samples.

Results

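Macrophages of the injured lung send growth factors to fibroblasts and epithelium, and the transcripts of 10 such factors are described here: Pdgfa, Pdgfb, Pdgfc, Tgfb1, Igf1, Vegfa, Areg, Hbegf, Osm and Csf1. They were chosen by symbol, and all 10 were found among the 43430 genes of the table, of which 25194 had at least 1 count in any library. RNA sequencing had been done on sorted lung cells of C57BL/6J mice, in 39 libraries. Naive mice gave monocytes, and mice given bleomycin gave Siglec F-low alveolar macrophages of monocyte origin, the cells that blood monocytes become after entering the injured airspace; bleomycin is a drug whose lung injury is followed by fibrosis. Mice were young or old and were given saline or ISRIB, a compound that counters the integrated stress response, by daily injection from day 7, with collection on day 21 after bleomycin; no timing is stated for naive mice. The sample labels give 8 to 12 weeks for young and over 18 months for old mice, whereas the series text gives 3 to 5 and 18 to 24 months. Each of the 8 groups (young saline, young ISRIB, old saline and old ISRIB, in monocytes and in macrophages) had 5 libraries except young ISRIB macrophages, with 4. Every macrophage group had bleomycin and no monocyte group did, so cell type and injury cannot be told apart. The labels do not say whether libraries came from single or pooled mice, so the p-values measure the spread between these libraries.

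These factors act on neighbouring cells through a few receptor families. PDGF chains bind PDGF receptors on fibroblasts and pericytes and drive their growth, Igf1 signals through the insulin-like growth factor receptor, and TGF-beta, encoded by Tgfb1, is secreted in a latent form and, once activated, drives fibroblasts to make matrix. Amphiregulin (Areg) and heparin-binding EGF (Hbegf) are made as membrane proteins and shed to activate the EGF receptor on epithelium and fibroblasts. Vegfa acts on endothelium, oncostatin M (Osm) is an IL-6 family cytokine that acts through gp130, and Csf1 maintains macrophages themselves.

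The libraries held between 4595331 and 16056708 counts (median 8628240). Levels are given as CPM, counts divided by library totals that TMM had adjusted over the 39 libraries. Defining markers went with the labelled cells: Siglecf had a median of 51.1 to 128 CPM in the macrophage groups and under 1 CPM in the monocyte groups, and Ly6c2, a gene of classical monocytes, had medians of 356 to 580.03 CPM in monocytes and 0.508 to 1.90 CPM in macrophages. Of 17 fibroblast and pericyte markers, 12 or 13 had a median under 1 CPM in each macrophage group, and Lum was at 0 in all 4; the summed level was 203 to 272 CPM in young saline, 139 to 263 in young ISRIB, 76.3 to 195 in old saline and 45.6 to 103 in old ISRIB macrophages, most of it from Cspg4. Of 21 epithelial markers, 10 or 11 had a median under 1 CPM in each macrophage group, and Krt8 stayed under 1 CPM in every library. All 21 had a count in young saline, old saline and old ISRIB macrophages, and 19 in young ISRIB macrophages. Their summed level was 254 to 328 CPM in young saline, 282 to 312 in young ISRIB, 233 to 458 in old saline and 299 to 450 in old ISRIB macrophages. Group medians of that sum in monocytes were 280 to 294 CPM. The B and plasma cell list of 11 genes summed to 7.04 to 30.1 CPM in young saline, 11.7 to 27.1 in young ISRIB, 25.02 to 431 in old saline and 159 to 599 in old ISRIB macrophages. In such bulk samples, fewer cells of a type and less RNA per cell cannot be told apart, and the part of other cells in the results below was not tested.

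The macrophages of bleomycin lungs had much more Pdgfa, Pdgfc and Igf1 transcript than the monocytes of naive lungs, moderately more Pdgfb and Csf1, and less Tgfb1, Osm, Vegfa and, on average over the groups, Areg. Averaged over the 4 matched pairs of groups, 9 of the 10 genes were called by edgeR at an adjusted p under 0.05, 5 higher and 4 lower, against 79.2% of the 13587 genes tested (39.9% higher and 39.2% lower). In young saline mice 8 were called, 5 higher and 3 lower, against 60.0% of all genes (31% higher and 29% lower). In old saline mice 7 were called, 5 higher and 2 lower, against 57.0% (29.7% higher and 27.3% lower). A difference between these cells was thus the rule over all genes, and the size of the differences tells more than their number: the averaged log2 changes ran from -3.28 for Vegfa to 8.39 for Igf1, with Pdgfc, whose young saline monocytes had no count, higher still. The median was 0.67 over the 10 genes, also with Pdgfc at its lower bound, and 0.00 over all genes.

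**Figure D1:**
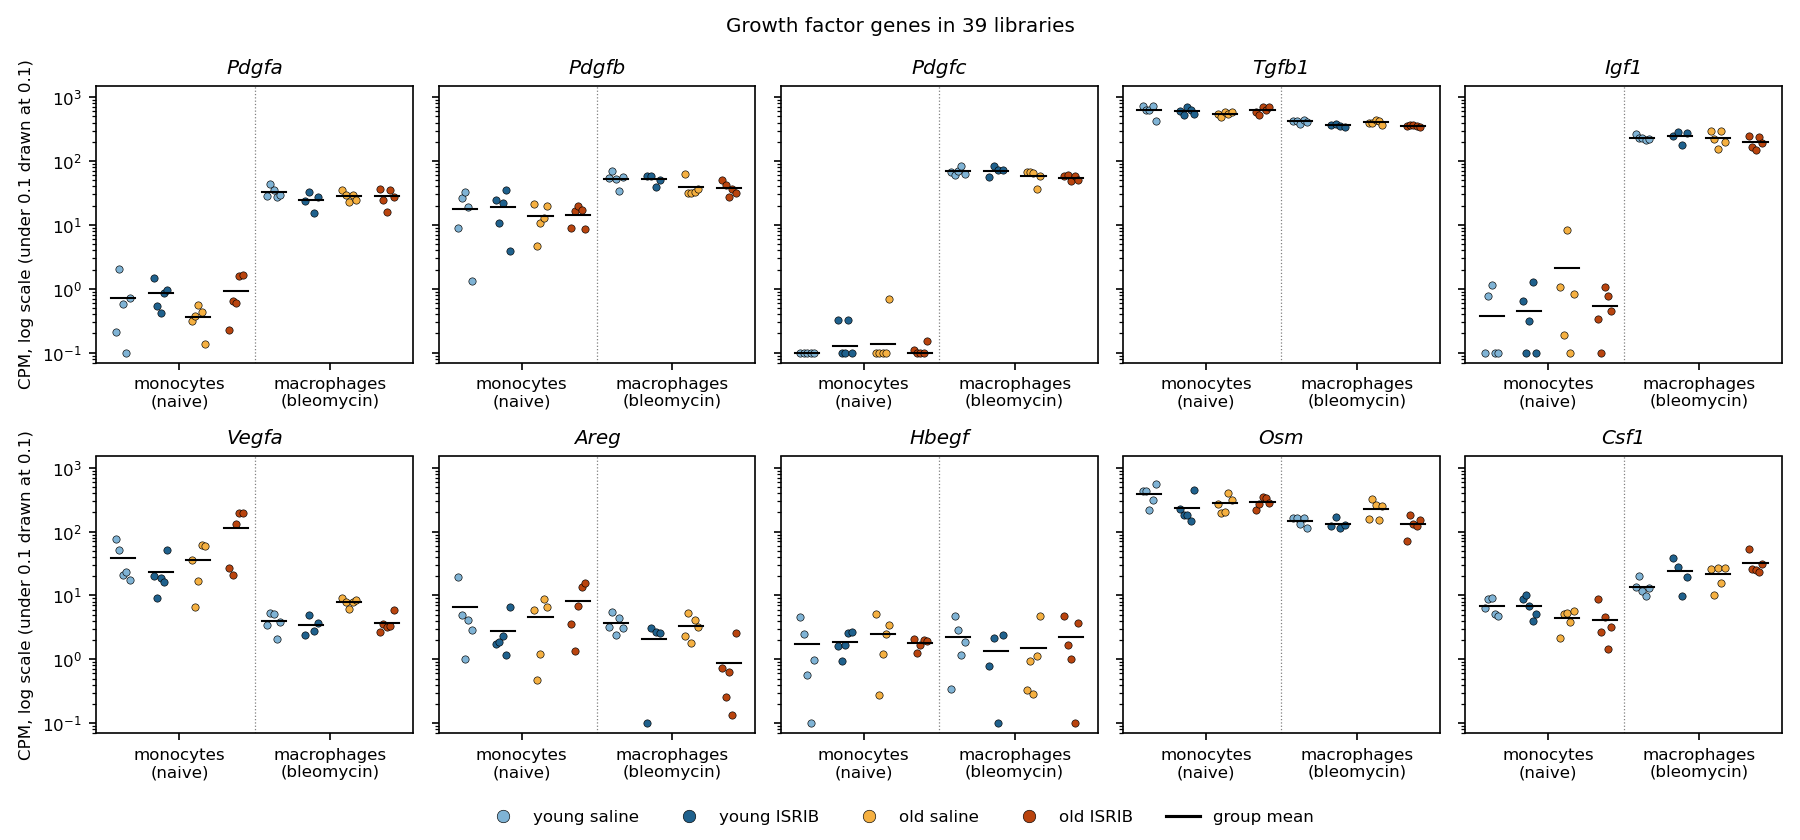
Levels of the 10 genes in CPM (log axis, values under 0.1 drawn at 0.1) in each of 39 libraries, by group; points are libraries and bars are group means. Pdgfa, Pdgfc and Igf1 separated the 2 kinds of cells completely, with 15.5 CPM or more of Pdgfa in every macrophage library and 2.07 CPM or less in every monocyte library.

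Ranked by CPM per kb of exon, the only scale used here to compare genes with each other, the macrophage order was Tgfb1 (76.6), Osm (70.9), Igf1 (22.95), Pdgfc (12.4), Pdgfb (10.9), Pdgfa (9.23), Csf1 (4.304), Areg (2.08), Vegfa (1.125) and Hbegf (0.382). In monocytes it was Osm (131), Tgfb1 (120), Vegfa (12.3), Areg (4.55), Pdgfb (3.89), Csf1 (1.06), Hbegf (0.411), Pdgfa (0.230), Igf1 (0.0868) and Pdgfc (0.0156). Tgfb1 and Osm thus stood at the top in both kinds of cells, while Igf1 and Pdgfc stood last in the monocyte order and just behind the top pair in macrophages.

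Pdgfc, whose chain forms a latent homodimer that must be cut to be active, lies on chromosome 3 at 81036416 to 81214040 of GRCm38 (plus strand). No count was found for it in any of the 5 young saline monocyte libraries, and there were 13 counts over all 20 monocyte libraries. Young saline macrophages had 67.5, 61.0, 70.4, 84.5 and 63.1 CPM, a mean of 69.3 ± 9.26 (SD, n = 5). All macrophage libraries, at 36.2 CPM or more, lay above all monocyte libraries, at 0.685 CPM or less. Against a floor of 3 counts over the young saline monocyte group, Pdgfc was at least 922-fold higher in macrophages. In old saline mice, with 5 counts in the monocytes, edgeR gave a log2 change of 8.95 ± 0.40 (SE, adjusted p = 4.3e-20). Reads of its antisense neighbour Gm16000 cannot be told apart without a strand setting, but that gene had 7 counts in all against 10109 for Pdgfc.

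Igf1, a survival and growth signal for mesenchymal and epithelial cells, lies on chromosome 10 at 87858265 to 87937042 (plus strand). Young saline macrophages had 261, 233, 233, 217 and 220 CPM, a mean of 233 ± 17.5 (SD, n = 5), and 3 of the 5 young saline monocyte libraries had no count, the others having 0.764 and 1.14 CPM. One old saline monocyte library, replicate 3, stood apart at 8.33 CPM against 1.06 or less in the other 4. The groups did not overlap, and the averaged log2 change was 8.39 ± 0.28 (SE, edgeR adjusted p = 9.5e-27). In old saline mice it was 6.86 ± 0.49, and in young saline mice 9.08 ± 0.60.

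Pdgfa and Pdgfb, the chains of the classical PDGF dimers, lie on chromosome 5 (138976014 to 138997370, minus strand) and chromosome 15 (79995874 to 80014977, minus strand). Pdgfa was at 28.4, 43.9, 34.8, 27.1 and 29.8 CPM in young saline macrophages and at 0.210, 2.07, 0.569, 0 and 0.719 CPM in young saline monocytes. Its averaged log2 change was 5.34 ± 0.20 (SE, edgeR adjusted p = 2.7e-25), with no overlap between the cells. An antisense gene, 6330403L08Rik, overlaps an exon of Pdgfa and had 1408 counts over all libraries against 4765 for Pdgfa; without a stated strand setting their reads cannot be told apart. Pdgfb was expressed in both kinds of cells, at 54.3, 69.9, 52.1, 33.5 and 56.4 CPM in young saline macrophages and 8.83, 26.6, 32.4, 19.2 and 1.32 CPM in young saline monocytes. The averaged change of Pdgfb was 1.49 ± 0.22 on the log2 scale (edgeR adjusted p = 9.8e-08), a 2.80-fold higher level in macrophages, and its monocyte libraries spread more widely, with a coefficient of variation of 57.3% over 20 monocyte libraries and 27.97% over 19 macrophage libraries. The library lowest in Pdgfb, young saline monocyte replicate 5, was also lowest in Treml4, a gene of nonclassical monocytes, at 34.3 CPM against 75.6 to 180.4 CPM in the other 4 of its group. That is 1 marker in 1 library, named after its values were seen. The 13 monocyte identity genes that include it summed to 13228 CPM there, inside the group's range of 10484 to 18147 CPM. The part of the mixture of monocyte subsets in this spread was not tested.

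**Figure D2:**
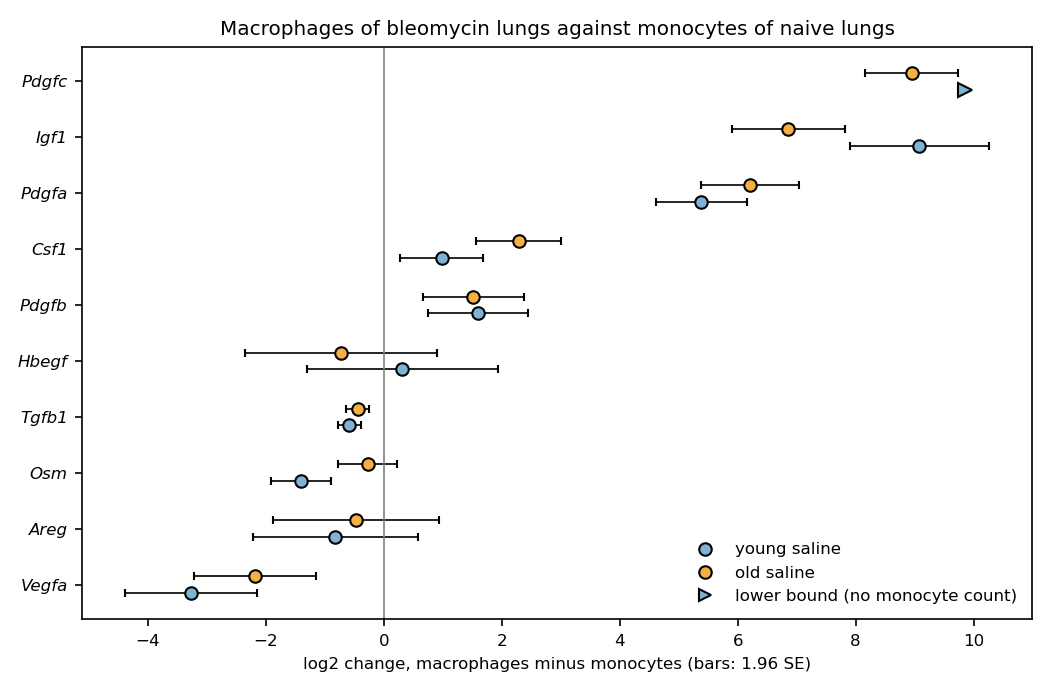
Log2 change from monocytes of naive lungs to macrophages of bleomycin lungs for the 10 genes, in young saline (blue) and old saline mice (orange). Bars are approximate 95% intervals, and the triangle is the lower bound for Pdgfc in young mice, whose monocytes had no count. Pdgfc, Igf1 and Pdgfa lie far to the right, and Vegfa far to the left at -3.26 in young and -2.18 in old mice. Hbegf and Areg bars cross 0 at both ages, and the Osm bar crosses 0 in old mice.

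Csf1, the growth factor of macrophages, lies on chromosome 3 at 107741048 to 107760469 (minus strand). It was at 13.4, 19.9, 11.9, 9.83 and 13.3 CPM in young saline macrophages and 6.41, 8.95, 8.99, 5.11 and 4.79 CPM in young saline monocytes, so that the lowest macrophage library stood just above the highest monocyte library. The log2 change was 0.98 ± 0.36 (SE, edgeR adjusted p = 0.0174) in young saline mice and lost its call without young saline macrophage replicate 2 (0.81, adjusted p = 0.0626). In old saline mice Csf1 was at 26.1, 10.2, 27.4, 15.9 and 26.98 CPM in macrophages and 2.12, 5.04, 5.33, 3.83 and 5.62 CPM in monocytes, a log2 change of 2.29 ± 0.37 (edgeR adjusted p = 1.4e-06). The age effect of Csf1 in macrophages less that in monocytes was 1.22 ± 0.36 on the log2 scale and missed the threshold (edgeR adjusted p = 0.112). In that contrast 0 of the 10 genes were called against 0.743% of all genes. At an unadjusted p under 0.05 there was 1 of the 10, against 1557 of 13587 genes. Of the 10, limma voom called none and DESeq2 called 1, Csf1 (adjusted p = 0.0456), against 222 of 13587 genes. Without old ISRIB monocyte replicate 1, its highest monocyte library of that group at 8.90 CPM, the contrast was called (1.47, edgeR adjusted p = 0.0259).

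Tgfb1, on chromosome 7 at 25687002 to 25705077 (plus strand), was abundant and even in both kinds of cells. Monocyte libraries ranged from 425 to 725 CPM with a median of 595, and macrophage libraries from 338 to 437 CPM with a median of 379. The averaged log2 change from monocytes to macrophages was -0.65 ± 0.05 (SE, edgeR adjusted p = 8.4e-15), a 1.57-fold lower level. Its coefficient of variation over macrophage libraries, 8.50%, was the lowest of the 10 genes.

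The genes that make latent TGF-beta active, or receive it, also differed between the cells. Of 18 tested genes of TGF-beta ligands, latency, activation and receptors, 11 were higher and 5 lower in macrophages (median log2 change 0.82). Among the lower genes were Thbs1, the matrix protein thrombospondin 1 that can activate latent TGF-beta, at -5.76 ± 0.35, and the integrin chain Itgb3, at -4.24 ± 0.24 (log2 ± SE, edgeR adjusted p = 3.9e-18 and 2.3e-19). Tgfbr3, the co-receptor betaglycan, had no count in young saline macrophages and averaged 0.18 CPM in old saline macrophages. Of 13 TGF-beta response genes, 6 were higher and 3 lower: Pmepa1, a target and feedback inhibitor of the pathway, was higher by 8.70 ± 0.21 on the log2 scale (edgeR adjusted p = 6.4e-32). These lists of related genes were drawn up with earlier results of these data known, and their counts read against the 79.2% called over all genes.

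Osm lies on chromosome 11 at 4236420 to 4241026 (plus strand). Young saline monocytes had 425, 433, 214, 315 and 557 CPM and young saline macrophages 165, 166, 133, 160.4 and 112 CPM, with no overlap. The log2 change was -1.40 ± 0.26 (SE, edgeR adjusted p = 1.5e-05) in young saline mice, a difference not called in old saline mice, where it was -0.27 ± 0.26 (adjusted p = 0.377) and the libraries overlapped. Among 11 tested genes of the IL-6 family and its receptors, 1 was higher and 9 lower in macrophages (median -1.08), against 39.9% higher and 39.2% lower over all genes. The leukaemia inhibitory factor receptor Lifr had -3.99 ± 0.16 (edgeR adjusted p = 5.8e-24). The immediate early gene list, which includes Fos, Egr1 and Nr4a1, summed to 15388 to 25959 CPM in monocytes and 3396 to 9396 CPM in macrophages. Of its 24 genes 20 were lower in macrophages, against 39.2% of all genes. Their part in the Osm and Vegfa differences was not tested.

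Vegfa (chromosome 17, 46016993 to 46032369, minus strand) was the gene most reduced in macrophages. Young saline monocytes had 77.3, 51.3, 21.1, 23.7 and 17.6 CPM and young saline macrophages 3.38, 5.25, 5.18, 2.05 and 3.89 CPM, with no overlap. The log2 change was -3.26 ± 0.57 (SE, edgeR adjusted p = 5.3e-06) in young and -2.18 ± 0.53 (adjusted p = 5.4e-04) in old saline mice; limma voom did not call the latter (-1.75, adjusted p = 0.0644). The averaged change of -3.28 ± 0.29 equals a 9.72-fold lower level (edgeR adjusted p = 3.7e-13).

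Areg, on chromosome 5 at 91139599 to 91148432 (plus strand), and Hbegf were low in every group. Areg was at 19.7, 4.91, 1.02, 4.08 and 2.87 CPM in young saline monocytes and 3.22, 5.51, 2.41, 4.40 and 3.08 CPM in young saline macrophages, which overlapped. It was called only in the average over the 4 pairs of groups, at -1.24 ± 0.38 on the log2 scale (edgeR adjusted p = 0.00355). Hbegf ranged from 0 to 5.20 CPM in monocytes and 0 to 4.85 CPM in macrophages. Its averaged change, -0.15 ± 0.42 (edgeR adjusted p = 0.752), has an approximate 95% interval from -0.97 to 0.68, from 303 counts over all macrophage and 361 over all monocyte libraries. Of 16 tested genes of EGF receptor ligands and their shedding, 9 were higher and 3 lower in macrophages. Over all genes 79.2% were called, 39.9% higher and 39.2% lower. Cd9, a tetraspanin partner of membrane-bound Hbegf, was higher by 7.08 ± 0.18 on the log2 scale (edgeR adjusted p = 1.5e-30). Ereg, the ligand epiregulin, had no count in any saline monocyte library and averaged 5.12 CPM in young and 5.49 CPM in old saline macrophages.

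The monocyte libraries spread widely in Vegfa and Areg, and in step. The promoter windows of both genes, the 250 bases before the RefSeq start of GRCm38.p6, are shown because these are the 2 members that moved together most closely. The first of 2 windows listed for Vegfa is printed, taken from chr17:46032378-46032627 (minus strand), and the Areg window from chr5:91139349-91139598 (plus strand), neither overlapping an annotated exon, each written 5′ to 3′ along its gene. Capitals mark the GC box GGGCGG, the TATA box TATAAA, the core TGACG of the cyclic AMP response element, whose full form is TGACGTCA, and the AP-1 site TGANTCA; the PU.1 core GAGGAA and the hypoxia response element core ACGTG were searched too and are left in lower case. All were searched on both strands.
Vegfa: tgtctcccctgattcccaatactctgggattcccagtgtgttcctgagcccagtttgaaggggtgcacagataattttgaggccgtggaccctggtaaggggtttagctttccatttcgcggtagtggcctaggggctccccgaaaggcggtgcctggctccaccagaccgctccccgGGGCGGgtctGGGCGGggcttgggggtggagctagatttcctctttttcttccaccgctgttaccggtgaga
Areg: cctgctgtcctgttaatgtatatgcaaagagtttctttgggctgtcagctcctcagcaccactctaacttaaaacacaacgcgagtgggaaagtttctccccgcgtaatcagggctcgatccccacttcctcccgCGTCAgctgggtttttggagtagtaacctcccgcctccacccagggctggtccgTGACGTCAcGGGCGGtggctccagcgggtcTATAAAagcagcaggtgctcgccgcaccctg
The Areg window holds a TATA box 31 bases before the start, a full cyclic AMP response element 61 bases before it, a further core at 115, a GC box at 52 and a PU.1 core at 124. The printed Vegfa window holds GC boxes 72 and 62 bases before the start and a PU.1 core at 35. The other Vegfa window, which overlaps a Vegfa exon and is not printed, holds a TGACG core at 209, a hypoxia response element core at 211 and a GC box at 158. Over 32851 promoter windows of the same length, TATAAA was found in 12.4%, TGACGTCA in 1.55%, TGACG in 17.8%, TGANTCA in 6.75%, ACGTG in 16.6%, GAGGAA in 23.3% and GGGCGG in 32.7%. Both printed windows thus hold a GC box and a PU.1 core, the 2 most common of the motifs searched, and a match describes letters, not binding. The table holds windows for 7 of the 10 genes.

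Old ISRIB monocytes showed the spread most plainly: Vegfa was at 26.9, 20.7, 131, 196 and 197 CPM and Areg at 3.56, 1.36, 6.74, 13.7 and 15.8 CPM in replicates 1 to 5. Replicates 3, 4 and 5 were high in both genes and replicates 1 and 2 low in both. After subtracting each group's mean of log2(CPM + 0.5), the 2 genes correlated over 20 monocyte libraries with a Pearson r of 0.901 (adjusted permutation p = 2.1e-04) and a Spearman rho of 0.911 (adjusted permutation p = 2.1e-04); the unadjusted p of 1.0e-05 is the smallest that 100000 permutations within groups can give. Without the 2 libraries farthest from the median in Vegfa, r was 0.852. Of 21 pairs among the 7 genes tested in monocytes, 6 had an adjusted p under 0.05 for r, and these included Vegfa with Hbegf (r = 0.630, adjusted permutation p = 0.00756), Vegfa with Osm (r = 0.612, 0.0155), Areg with Osm (r = 0.664, 0.0140) and Areg with Hbegf (r = 0.660, 0.0215, and r = 0.466 without the 2 farthest libraries). The sixth, Tgfb1 with Vegfa (r = 0.520, 0.0462), had a Spearman rho of 0.463 with an adjusted permutation p of 0.186. All values of a library share its scaling and depth.

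Some genes outside the 10 moved with this spread in the ISRIB groups. In old ISRIB monocytes Thbs1 was at 1595, 1785, 4501, 8104.5 and 12083 CPM, and Il1b, an inflammatory cytokine, at 390.3, 423, 1008, 1370.1 and 1195 CPM, in the same replicate order. Fos, the immediate early transcription factor, ran the other way at 5094, 5113, 3186, 1862 and 1139 CPM, and Egr1 at 421, 499, 231, 99.2 and 81.3 CPM. In old saline monocytes the immediate early list, which holds both, instead ran broadly with Vegfa. It summed to 18145, 16665, 17550, 21803.5 and 25579 CPM, with Vegfa at 35.7, 6.63, 16.5, 60.7 and 59.5 CPM. The TGF-beta list that holds Thbs1 summed to 11075, 7295, 3447, 2956 and 8295 CPM in young saline monocytes. Vegfa there was at 77.3, 51.3, 21.1, 23.7 and 17.6 CPM. In young ISRIB monocytes the library highest in Vegfa (50.6 CPM) and Areg (6.66 CPM), replicate 5, was also highest in Thbs1 (5830.5 CPM), Il1b (636 CPM) and Osm (454 CPM). The part of these genes in the spread of Vegfa and Areg was not tested.

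**Figure D3:**
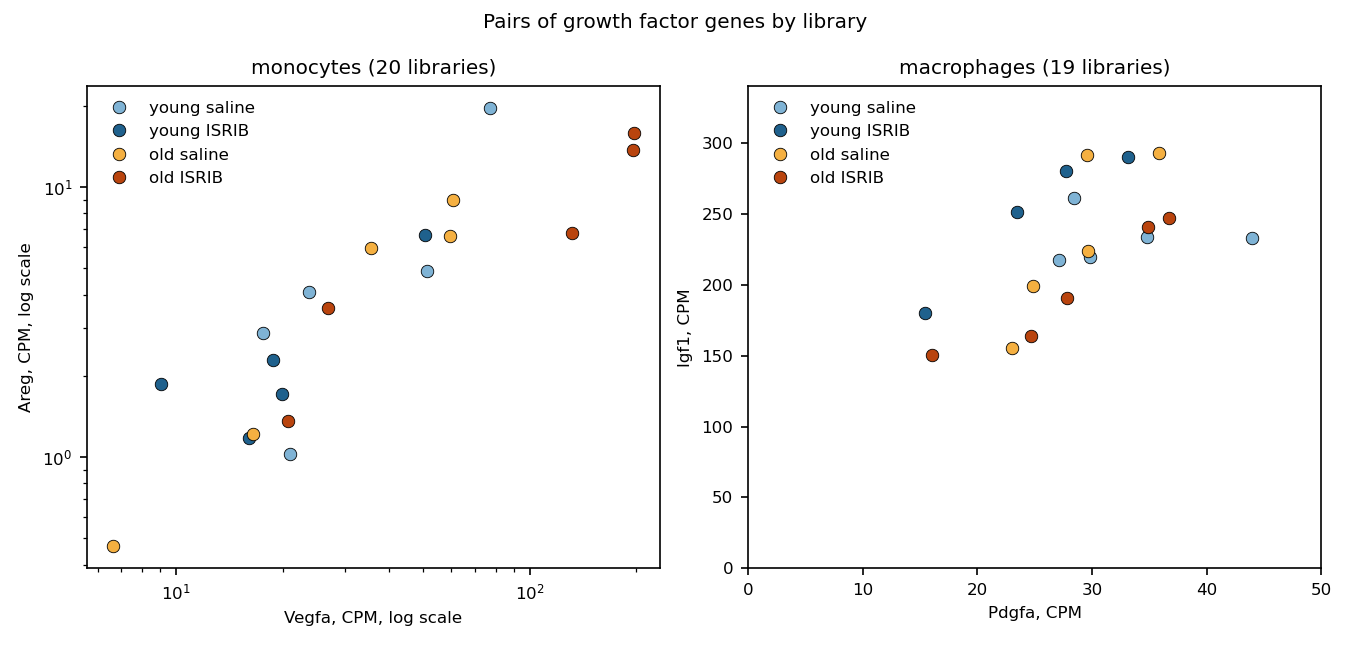
Left, Vegfa against Areg in CPM (log axes) in 20 monocyte libraries; right, Pdgfa against Igf1 in CPM in 19 macrophage libraries, coloured by group. In monocytes the points run along a diagonal from 6.63 CPM of Vegfa and 0.467 CPM of Areg to 197 and 15.8 CPM.

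In macrophages a different set moved together. Pdgfa and Igf1 correlated over 19 libraries after subtraction of group means, with r = 0.797 (adjusted permutation p = 0.00360 over 45 pairs) and rho = 0.786 (adjusted permutation p = 0.00810), and with r = 0.712 without the 2 farthest libraries. Pdgfa and Pdgfb had r = 0.693 (adjusted permutation p = 0.0324), rho = 0.665 (adjusted permutation p = 0.0901) and r = 0.613 without the 2 farthest. No other pair of the 45 had an adjusted p under 0.05; whether the pairs differ between the 2 kinds of cells was not tested.

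ISRIB was compared with saline to ask whether blocking the integrated stress response changes what the cells express. In macrophages of both ages averaged, 1 of the 10 genes, Tgfb1, was called by edgeR, lower, against 0.830% of the 12171 genes tested (0.452% higher and 0.378% lower). Young saline macrophages had 430.1, 422, 388, 437 and 412 CPM and young ISRIB macrophages 373, 379, 356 and 340.4 CPM. Old saline macrophages had 400.2, 400.1, 436, 420 and 370.1 CPM and old ISRIB macrophages 360.0, 362, 364, 349 and 338 CPM. Saline and ISRIB libraries did not overlap at either age, and the difference was small: -0.20 ± 0.05 on the log2 scale (SE, edgeR adjusted p = 0.0429), a 1.15-fold lower level. Over 6 alternative analyses the adjusted p ran from 0.00282 to 0.231. The call was lost without a filter on low counts (adjusted p = 0.0604) and in a fit of all 39 libraries (adjusted p = 0.231), and, of 19 omissions of 1 library (adjusted p 0.0152 to 0.0983), it held only without young saline 3 or 5, young ISRIB 3, or old saline 3 or 5. The log2 change stayed between -0.21 and -0.18 over the omissions.

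**Figure D4:**
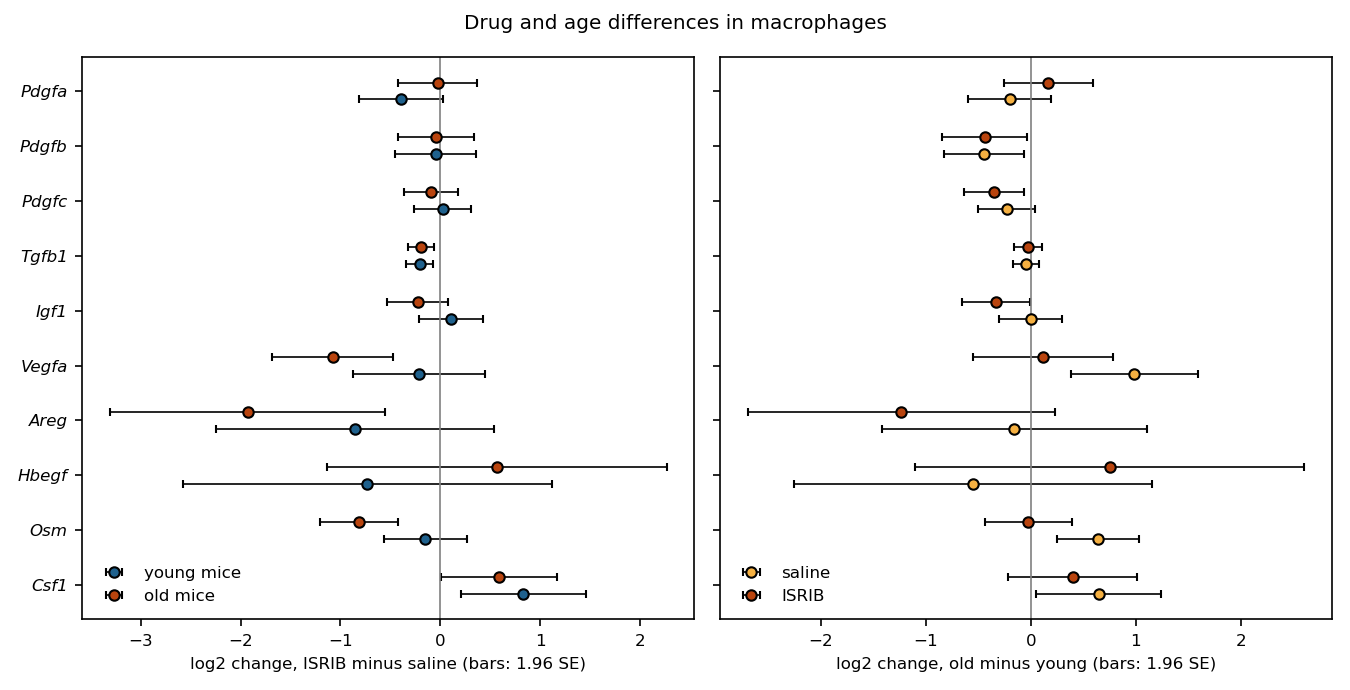
Log2 changes of the 10 genes in macrophages, with bars of approximate 95% intervals. Left, ISRIB minus saline in young and old mice, and right, old minus young in saline and ISRIB mice. Tgfb1 bars are narrow and lie below 0 under ISRIB at both ages, while Areg and Hbegf bars span more than 2 log2 units.

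At each age alone, 0 of the 10 genes and 0% of all genes were called by edgeR for ISRIB in macrophages. At an unadjusted p under 0.05 there were 2 of the 10 in young mice and 4 in old mice, against 1513 and 1112 of the 12171 genes. DESeq2 called 0 and 1 of the 10, against 105 and 43 of the 12171 genes, and limma voom none. The one was Osm in old mice: saline libraries had 159, 318, 260.0, 153 and 252 CPM and ISRIB libraries 70.9, 181, 130.2, 120.2 and 149 CPM. They overlapped, with the log2 change at -0.81 ± 0.20 (SE, edgeR adjusted p = 0.167, DESeq2 adjusted p = 0.0464). Without a filter on low counts edgeR called Osm too (adjusted p = 3.35e-07). That run called 220 of 22729 genes for ISRIB in old macrophages, against 0 of 12171 in the main run. In young mice Osm was at 147 ± 24.0 CPM (SD, n = 5) with saline and 133 ± 25.3 CPM (SD, n = 4) with ISRIB, a log2 change of -0.15 ± 0.21. The ISRIB effect on Osm in old mice less that in young mice was -0.66 ± 0.29 (edgeR adjusted p = 0.954). In that contrast 0 of the 10 genes and 0% of all genes were called. An unadjusted p under 0.05 was found for 1 of the 10, against 621 of 12171 genes, and DESeq2 and limma voom called none.

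Vegfa in old macrophages separated completely by treatment, at 8.99, 7.88, 6.23, 7.86 and 8.43 CPM with saline and 2.63, 3.54, 3.23, 3.36 and 5.93 CPM with ISRIB, from 25 to 81 counts a library. The log2 change was -1.08 ± 0.31 (SE, edgeR adjusted p = 0.265) and so was not called, while in young macrophages it was -0.21 ± 0.34 and the libraries overlapped. Areg in old macrophages was at 2.33, 5.29, 1.79, 4.15 and 3.16 CPM with saline and 0.736, 0.253, 0.621, 0.134 and 2.62 CPM with ISRIB, which overlapped only through ISRIB replicate 5. Its log2 change was -1.93 ± 0.70 in old and -0.85 ± 0.71 in young mice, and -1.39 ± 0.50 averaged over both ages (edgeR adjusted p = 0.146, DESeq2 adjusted p = 0.0499). Csf1 leaned the other way: young libraries had 13.4, 19.9, 11.9, 9.83 and 13.3 CPM with saline and 39.3, 27.99, 9.74 and 19.7 CPM with ISRIB. Averaged over both ages its log2 change was 0.71 ± 0.22 (edgeR adjusted p = 0.0960). Without young ISRIB replicate 3, the lowest at 9.74 CPM, Csf1 was called in the average (0.84, adjusted p = 0.0150) and in young mice (1.09, adjusted p = 0.0490).

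Pdgfa, Pdgfb, Pdgfc, Igf1 and Hbegf had averaged ISRIB changes between -0.21 and -0.03 on the log2 scale, none called. Their approximate 95% intervals were from -0.32 to 0.23 for Pdgfb, -0.23 to 0.16 for Pdgfc, -0.28 to 0.16 for Igf1, -0.50 to 0.08 for Pdgfa and -1.33 to 1.17 for Hbegf. The interval of Hbegf, which had 0 to 46 counts a macrophage library, was the widest of these 5.

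In the list of IL-6 family cytokines, their receptors and genes downstream of them, 3 of 11 tested genes were called for ISRIB in macrophages of both ages averaged, all lower, against 0.830% of all genes (0.378% lower). The other 8 were not called, and the list median was -0.15 against 0.00 over all genes. Lif, a cytokine close to Osm, was at 14.9, 16.5, 12.3, 20.5 and 16.7 CPM in young saline and 4.64, 11.5, 10.8 and 9.15 CPM in young ISRIB libraries, with no overlap, and in old mice averaged 15.6 ± 6.53 CPM with saline and 6.37 ± 2.85 CPM with ISRIB (SD, n = 5 each). Its log2 change was -1.07 ± 0.23 (SE, edgeR adjusted p = 0.0296). Bcl3, an NF-kappaB cofactor and STAT3 target, fell by 0.74 ± 0.13 (adjusted p = 0.00920), and Socs3, the feedback inhibitor of gp130 signalling, fell by 0.42 ± 0.10 (adjusted p = 0.0429). Bcl3 held its call in all 19 omissions, Lif in 13 (not without young saline 2 or 4, young ISRIB 1 or 4, old saline 2 or old ISRIB 5; up to an adjusted p of 0.0822) and Socs3 in 6 (only without young saline 3, young ISRIB 2 or 3, old saline 3 or 5, or old ISRIB 4; up to 0.0894). In a fit of all 39 libraries none of the 3 was called (adjusted p 0.0813, 0.0927 and 0.251 for Bcl3, Lif and Socs3).

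**Figure D5:**
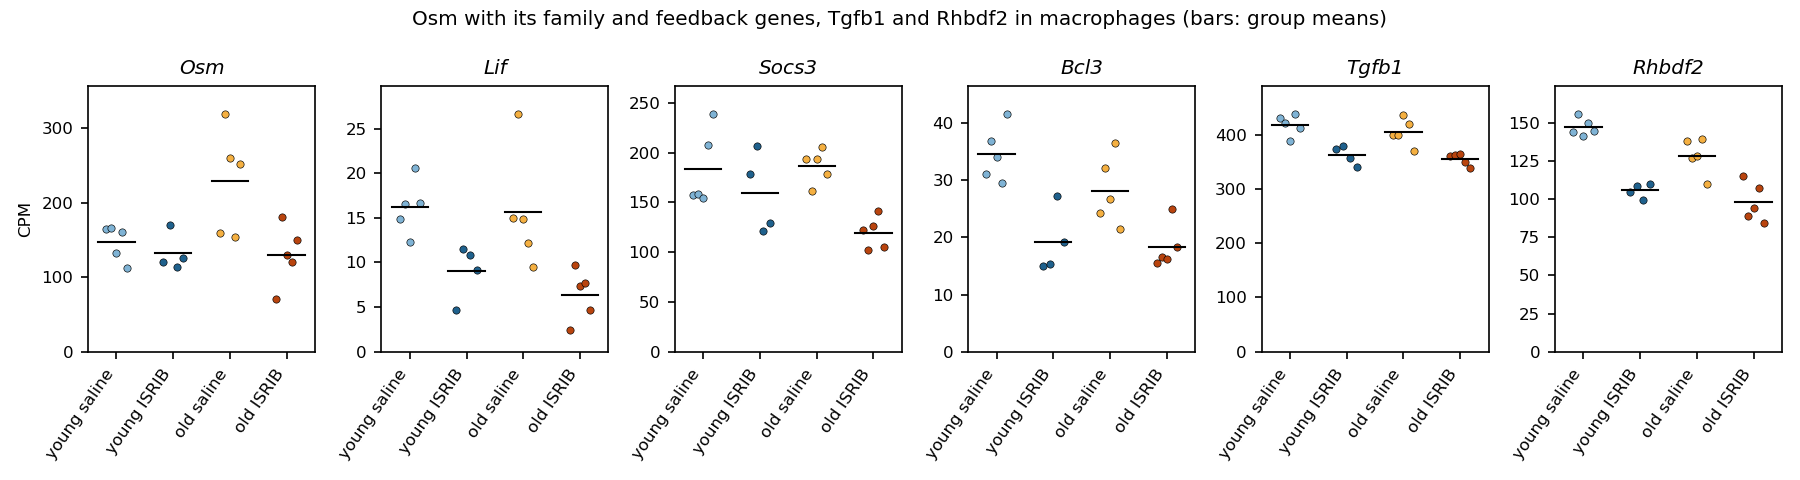
CPM of Osm, its relative Lif, the feedback and target genes Socs3 and Bcl3, Tgfb1, and Rhbdf2 in 19 macrophage libraries; points are libraries and bars group means. ISRIB libraries lie below saline libraries of the same age without overlap for Tgfb1 at both ages, and for Rhbdf2, Bcl3 and Lif in young mice.

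In the EGF receptor list 1 of 14 genes was called in this average, against 0.830% of all genes. It was Rhbdf2, the partner of the sheddase Adam17, which frees Areg and Hbegf. Young saline libraries had 144.2, 156, 141, 150.1 and 145 CPM and young ISRIB libraries 105, 109, 99.7 and 109.9 CPM. In old mice the 5 saline libraries lay between 109.8 and 139.7 CPM and the 5 ISRIB libraries between 84.4 and 115 CPM. Rhbdf2 fell by 0.43 ± 0.06 on the log2 scale (SE, edgeR adjusted p = 0.00509, the smallest of the 12171 genes), and the call held in all 19 omissions but not in the fit of all 39 libraries (adjusted p = 0.0531). In the TGF-beta list 2 of 16 were called: the receptor Tgfbr2, higher by 0.29 ± 0.07 (adjusted p = 0.0429), and Thbs1, lower by 1.30 ± 0.29 on the log2 scale (adjusted p = 0.0341). Tgfbr2 held in 4 of 19 omissions (without young ISRIB 3, old saline 3 or 5, or old ISRIB 4; up to an adjusted p of 0.123) and Thbs1 in 8 (without young saline 1, 3 or 5, young ISRIB 3, old saline 3 or 5, or old ISRIB 1 or 4; up to 0.0983). The fit of all 39 libraries called neither (0.194 and 0.168), and limma voom did not call Thbs1 (0.0543). Of the other growth factor and pathway lists none had a called gene: 0 of 13 TGF-beta response genes, 0 of 5 PDGF and VEGF family genes, 0 of 6 IGF axis genes, 0 of 4 CSF axis genes, 0 of 20 other growth factors and 0 of 13 hypoxia genes. Of 16 macrophage identity genes 2 were called, both higher, the mannose receptor Mrc1 (0.35 ± 0.08, adjusted p = 0.0341) and Siglecf (0.57 ± 0.12, adjusted p = 0.0329), with a list median of 0.12. The median ISRIB change was 1.01 over 10 B and plasma cell markers, 0.53 over 13 T, NK and innate lymphoid markers and 0.65 over 7 neutrophil markers, and the part of these cells in the ISRIB differences was not tested.

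Old and young macrophages were compared to ask what age alone does after injury. None of the 10 genes was called by edgeR, with saline (against 1.16% of all genes), with ISRIB (0.937%, of which 0.444% higher and 0.493% lower) or averaged over both (4.86%, of which 3.12% higher and 1.74% lower). At an unadjusted p under 0.05 there were 4, 2 and 5 of the 10, against 1545, 1485 and 2162 of the 12171 genes. DESeq2 called 0, 0 and 1 of the 10 and limma voom none. Pdgfb averaged 53.2 ± 13.1 CPM with saline (SD, n = 5) and 51.5 ± 9.37 CPM with ISRIB (SD, n = 4) in young macrophages, and 39.2 ± 13.1 CPM with saline and 38.02 ± 8.98 CPM with ISRIB in old ones (SD, n = 5 each). In old saline macrophages replicate 1 stood apart at 62.3 CPM from the other 4, at 31.4 to 37.1 CPM. The averaged log2 change of Pdgfb was -0.44 ± 0.14 (SE, edgeR adjusted p = 0.0740), and it was called by DESeq2 (adjusted p = 0.0385), without a filter on low counts (0.00190), and without old saline replicate 1 (-0.56, 0.00831), young saline replicate 4 (-0.50, 0.0334) or old ISRIB replicate 1 (-0.51, 0.0372). Pdgfc, at 69.3 ± 9.26 and 70.6 ± 11.03 CPM in the young and 58.9 ± 13.4 and 55.2 ± 4.52 CPM in the old groups (SD, n = 5, 4, 5 and 5), had -0.29 ± 0.10 (edgeR adjusted p = 0.0968) and was called without a filter (0.0320) or without young ISRIB replicate 1 (-0.34, 0.0457).

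Vegfa was higher in old than in young saline macrophages without overlap, at 6.23 to 8.99 CPM against 2.05 to 5.25 CPM, with a log2 change of 0.99 ± 0.31 (SE) that missed the threshold (edgeR adjusted p = 0.127). Osm in the same comparison had 0.64 ± 0.20 (edgeR adjusted p = 0.125). Without a filter on low counts its edgeR adjusted p was 5.9e-05, in a run that called 468 of 22729 genes. With ISRIB the age differences of Vegfa and Osm were 0.12 ± 0.34 and -0.02 ± 0.21, with libraries overlapping. The saline comparison by age and the ISRIB comparison in old mice share the old saline libraries, so their opposite signs are not independent. Tgfb1 differed little by age: the averaged log2 change was -0.04 ± 0.05, with an approximate 95% interval from -0.13 to 0.05.

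Among related genes, averaged over both treatments, Hgf fell by 0.66 ± 0.11 on the log2 scale (SE, edgeR adjusted p = 4.8e-04). The averaged level of this gene, the epithelial mitogen hepatocyte growth factor, was 75.4 CPM in young and 48.1 CPM in old macrophages. With saline alone Hgf was at 75.1 ± 8.29 CPM in young and 54.1 ± 10.9 CPM in old macrophages (SD, n = 5 each) and was not called. With ISRIB alone it was called (-0.84 ± 0.16, edgeR adjusted p = 0.00651), at 75.7 CPM in young and 42.1 CPM in old macrophages. Averaged again over both treatments, Gdf15, a stress-induced cytokine of the TGF-beta superfamily, rose by 1.30 ± 0.27 (adjusted p = 0.00399). In the TGF-beta list 4 of 16 tested genes were called, against 4.86% of all genes, 1 higher and 3 lower, and these included Itgav, the alpha chain of integrins that activate latent TGF-beta (-0.50 ± 0.07, adjusted p = 1.9e-04), and the co-receptor Eng (-0.52 ± 0.13, adjusted p = 0.0207). Of 13 response genes 3 were called, and of these Pmepa1 fell by 0.56 ± 0.08 (adjusted p = 1.9e-04), a call lost in the fit of all 39 libraries (adjusted p = 0.0671). The list median was 0.04. Of 14 EGF receptor genes 2 were called, both lower, and of 20 other growth factors 1 was higher and 2 lower. None of 5 PDGF and VEGF family, 6 IGF axis, 11 IL-6 family and 4 CSF axis genes was called. Markers of other cells moved in the same average. Of 10 tested B and plasma cell markers 7 rose with age (median 2.67), with sums as given above. Of 13 T, NK and innate lymphoid markers 4 rose (Lck, Cd3g, Gzmb and Trbc2; median 1.60), and their list summed to 125 to 161 CPM in young saline, 140.4 to 288 in young ISRIB, 117 to 290.2 in old saline and 251 to 342 in old ISRIB macrophages. Of 7 neutrophil markers Mmp9 and Cxcr2 rose (median 1.69), and of 9 fibroblast and pericyte markers Cspg4 fell (median -0.92). The macrophage identity list had 4 of 16 genes higher and 3 lower, and the monocyte identity list 4 of 13 higher and 4 lower. The part of these cells in the age differences was not tested.

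In monocytes none of the 7 genes tested (Pdgfa, Pdgfc and Igf1 were too low) was called by edgeR in any comparison. For ISRIB in young, old and all mice the share over all 12170 genes was 0%, and 1, 1 and 0 of the 7 had an unadjusted p under 0.05; for age it was 0.0247% with saline, 0% with ISRIB and 0.123% averaged, with 0, 2 and 2 of the 7. For the difference between the ISRIB effects it was 0%, with 1 of the 7. DESeq2 and limma voom called none of the 7 in these comparisons. Vegfa was at 19.96, 9.05, 18.8, 16.1 and 50.6 CPM in young ISRIB against 26.9, 20.7, 131, 196 and 197 CPM in old ISRIB monocytes, which overlapped, with a log2 change of 2.31 ± 0.63 (SE, edgeR adjusted p = 0.334). It was called in the fit of all 39 libraries (edgeR adjusted p = 0.0276), which called 33 of 13587 genes, and without a filter (0.0190), which called 41 of 23338. Tgfb1 in monocytes had averaged changes of 0.06 ± 0.09 for ISRIB and -0.05 ± 0.09 for age.

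The macrophage genes whose levels followed each factor most closely are given as a description over 19 libraries that share their groups and scaling. Pearson's r of log2 CPM was 0.906 for Igf1 with Tns3 and 0.894 with Ctsb, a lysosomal protease. It was 0.904 for Csf1 with Rhob, 0.879 for Vegfa with Il6, 0.868 for Tgfb1 with Ranbp3 and 0.847 with Rhbdf2. For Osm it was 0.867 with Csrnp1, 0.847 with Plk3 and 0.801 with Nr4a1, of which Nr4a1 is on the immediate early list. Areg had 0.872 with Arntl2, Pdgfb 0.838 with Daglb, Pdgfc 0.799 with Rhno1, Pdgfa 0.767 with Blnk and Hbegf 0.723 with Cdc26. Il6 itself was near the limit of counting in these cells, at 4.74 CPM or less in every macrophage library.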

How the data were processed

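Sorted cells of 39 mouse lung samples were profiled by RNA sequencing. Per the labels' protocols, polyA libraries were made from 3 ng of total RNA. Per the submitters' processing notes, bcl2fastq 2.19.1, FastQC, Trimmomatic 0.36, STAR 2.6.0, HTSeq 0.11.2 and the build mm10 were used; no source used here gives the strand setting or the annotation. The deposited values are counts per Ensembl gene, neither scaled nor filtered. A group was read from the sample labels. Symbols and GRCm38 positions came from GENCODE vM21 (97.8% of 43430 IDs matched).

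Tests used the quasi-likelihood method of edgeR 4.0.16 (R 4.3.3) with TMM, filterByExpr (minimum count 10, minimum total 15) and Benjamini-Hochberg adjustment over all genes tested. Macrophage libraries (19; 12171 genes), monocyte libraries (20; 12170 genes) and all 39 (13587 genes, for macrophages against monocytes) were fitted apart, with 1 mean per group and no covariate. Pseudocounts of 0.5 CPM were used for pairs of genes, whose p came from 100000 permutations within groups, two-sided. Intervals of counts cover counting error only. Those of log2 changes were approximated from a normal distribution and the SE, and are narrower than the F test implies. Csf1 under ISRIB in old macrophages, for instance, had 0.006 to 1.17 at an unadjusted edgeR p of 0.0587. Likeness used log2 CPM with a prior count of 2. Alternatives were DESeq2 1.42.0, limma 3.58.1 voom, DESeq2 size factors, no filter, a replicate block, all 39 libraries, only the 2 groups compared, and each library left out. The method was tested on simulated data. All 10 genes were open to naming, and of the related genes up to 5 called per direction and comparison with at least 5 CPM; genes of the marker and immediate early lists, Il1b, Ereg and Treml4 were named after their values were seen. Promoter windows are from RefSeq (GRCm38.p6). The genes and lists were chosen with earlier results of these data known. One gene that met the naming rule is not reported here.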

Additional observations from a re-analysis of the deposited data

Results flagged for a closer look

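For each of the 10 genes and 8 groups, the highest and the lowest library were compared with the rest of their group, and 11 of the 80 groups held a library whose gap to its neighbour exceeded Dixon's 95% critical value. About 1 in 20 groups would do so by chance if CPM values were normally distributed, which was not checked, and several of these values share a library. Pdgfc in young saline monocytes, with no count in any library, could not show a gap. In monocytes, young ISRIB replicate 5 was highest in Vegfa (50.6 CPM), Areg (6.66 CPM) and Osm (454 CPM), and young saline replicate 1 was highest in Areg (19.7 CPM). Old saline monocyte replicate 3 was highest in Igf1 (8.33 CPM) and replicate 5 in Pdgfc (0.685 CPM, 5 counts). In macrophages, old ISRIB replicate 5 was highest in Vegfa (5.93 CPM) and Areg (2.62 CPM), and old ISRIB replicate 1 in Csf1 (53.9 CPM). Old saline macrophage replicate 1 was highest in Pdgfb (62.3 CPM) and replicate 5 in Hbegf (4.85 CPM). All 11 were high values.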

How the results depend on the processing

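No called value changed its direction under any alternative run. The number of the 10 genes called moved as follows. With DESeq2 it was 1 for ISRIB in old macrophages (Osm), 2 for ISRIB averaged (Tgfb1, Areg), 1 for age averaged in macrophages (Pdgfb) and 1 for the difference between the age effects (Csf1). Without a filter on low counts it was 1 for ISRIB in young macrophages (Csf1), 1 in old (Osm), 2 averaged (Osm, Csf1), 1 for age with saline (Osm), 4 for age averaged (Pdgfb, Pdgfc, Osm, Csf1) and 1 for age with ISRIB in monocytes (Vegfa). In the fit of all 39 libraries it was 0 for ISRIB averaged in macrophages and 1 for age with ISRIB in monocytes (Vegfa). Over all genes, the main run called 0, 0 and 141 of 12171 for ISRIB in young, ISRIB in old and age with saline in macrophages. Without a filter these were 224, 220 and 468 of 22729. DESeq2 called 43 for ISRIB in old macrophages. For the difference between the age effects the main run called 101 and DESeq2 222 of 13587. For age with ISRIB in monocytes the main run called 0, no filter 41 of 23338 and all 39 libraries 33 of 13587. The cause was not tested. Of the 10 genes, leaving out 1 library gave 0 to 1 for ISRIB in young macrophages, 0 to 2 for ISRIB averaged and 0 to 1 for age averaged. It gave 7 to 8 for macrophages against monocytes in young saline mice and 0 to 1 for the difference between the age effects.

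Replicate numbers showed no pairing in the median correlation of deviations from group means. In macrophages it was 0.00 over 27 pairs of same-numbered libraries and 0.00 over 108 pairs of different numbers. In monocytes it was -0.01 over 30 pairs and -9.5e-04 over 120 pairs. With the number as a block, 2 genes were called for ISRIB averaged in macrophages (Tgfb1, Osm) and 1 for age averaged (Pdgfb).

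Over all genes, ISRIB averaged in macrophages gave 101 calls with edgeR, 440 with DESeq2, 169 with limma voom, 640 without a filter, 343 with the block and 17 in the fit of all 39 libraries. Age averaged gave 592, 819, 494, 975, 497 and 340. Calls within macrophages therefore rest on the method chosen, whereas macrophages against monocytes gave 9 of 10 genes under each alternative run on the average. Depth limits Hbegf and Areg, and Pdgfa, Pdgfc and Igf1 in monocytes.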

Other observations

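The summed level of the 10 genes is dominated by Tgfb1, Osm and, in macrophages, Igf1. It was 916 to 1030.5 CPM in young saline, 792 to 1051 in young ISRIB, 984 to 1096 in old saline and 768 to 885 CPM in old ISRIB macrophages, so that old saline and old ISRIB macrophages did not overlap in it. This sum was looked at after the values of its members were seen, and no test was made of it.

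In monocytes averaged over both treatments, Tnfsf12, the cytokine TWEAK that acts on epithelial and mesenchymal cells, was the 1 gene called among 18 other growth factors for age (0.123% of all genes were called). Young monocytes had 22.6 ± 6.02 CPM with saline and 21.3 ± 3.03 CPM with ISRIB, and old monocytes 13.02 ± 2.35 and 14.4 ± 1.37 CPM (SD, n = 5 each). Tnfsf12 fell by 0.67 ± 0.13 on the log2 scale (SE, edgeR adjusted p = 0.0257). The call was lost with the replicate number as a block (adjusted p = 0.0523) and without young ISRIB 1 or 2, old saline 1, or old ISRIB 1 or 2 (up to 0.0690).

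Hilpda, a lipid droplet gene induced by hypoxia, was the 1 called gene of 13 hypoxia genes in old against young saline macrophages (1.16% of all genes were called). It was at 8.82 ± 1.04 CPM in young and 24.9 ± 8.90 CPM in old macrophages given saline (SD, n = 5 each), a log2 change of 1.51 ± 0.36 (SE, edgeR adjusted p = 0.0329). Without old saline replicate 5 it was 1.29 (adjusted p = 0.141), and the call was also lost without any of the 5 young saline libraries, without old saline 3 and in the fit of all 39 libraries (0.200).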
